A study of Mus musculus with 35 samples.

Results

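How far the transcriptional effects of lipopolysaccharide (LPS) and of dexamethasone (Dex) depended on each other was examined in bone marrow-derived macrophages (BMDMs) of both genotypes of the series. The libraries used were all those labelled vehicle, Dex, LPS or LPS + Dex, which gave 23 of the 35 libraries. Macrophages grown from the marrow of C57BL/6 mice in L929-conditioned medium were treated for 24 h with vehicle (DMSO), 100 nM Dex, 100 ng/ml LPS, or LPS together with Dex. Wild type contributed 3 libraries of vehicle, 3 of Dex, 2 of LPS (replicates 2 and 3, since replicate 1 was not analysed here) and 3 of LPS + Dex. The genotype labelled AMPKa1-/-, a germline loss of a catalytic subunit of AMP-activated protein kinase, contributed 3 libraries of each of these treatments. The remaining 12 libraries received damage-associated molecular patterns (DAMPs) with or without Dex and served only for the last comparison. According to the study's methods, replicates are cultures from individual mice, while no source says what a shared replicate number marks. Neither age nor sex is given per library. The deposited values are FPKM, in which the fragments of a gene are divided by its length and by the size of the library, and which are levels per length and can be compared between genes.

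LPS, a component of the outer membrane of Gram-negative bacteria, is sensed by Toll-like receptor 4 (TLR4) and activates NF-kB, MAP kinases and, through an autocrine interferon loop, STAT and IRF factors. Dex is a synthetic glucocorticoid that binds the glucocorticoid receptor, which raises transcription at some genes, among them inhibitors of inflammatory signalling, and lowers it at others, classically those driven by NF-kB and AP-1. Because both agents act through factors that meet at shared enhancers, the effect of one can differ in the presence of the other. This was quantified per gene as an interaction, the effect of Dex in the presence of LPS (LPS + Dex minus LPS) minus its effect in the absence of LPS (Dex minus vehicle), on the log2(FPKM + 1) scale. The same number is obtained when LPS and Dex exchange roles. A value of 0 means that the effects multiply on the FPKM scale, a positive value that LPS + Dex lay above this additive expectation, and a negative value that it lay below. Genes with an adjusted p-value under 0.05 are referred to as called (limma over all genes with a mean of at least 1 FPKM, 2-sided, Benjamini-Hochberg adjustment). The addition of 1 FPKM shrinks the folds of weakly expressed genes.

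Before the effects were compared, the labels were examined against the gene levels. Prkaa1, the gene that encodes AMPKa1, measured 15.9, 11.8 and 15.3 FPKM in the wild-type vehicle libraries and 14.8, 16.5 and 15.4 FPKM in those labelled AMPKa1-/-. In Dex the values were 26.1, 23.2 and 19.1 FPKM in wild type and 21.5, 14.03 and 20.4 FPKM in AMPKa1-/-, in LPS 15.3 and 10.4 FPKM in wild type and 9.05, 11.2 and 10.52 FPKM in AMPKa1-/-, and in LPS + Dex 20.5, 13.7 and 8.59 FPKM in wild type and 12.5, 12.9 and 9.65 FPKM in AMPKa1-/-. The genotypes overlapped in every treatment. A whole-gene value also counts fragments outside a deleted part, so that it does not check the genotype labels, and "AMPKa1-/-" means the libraries labelled so throughout. By contrast, Tsc22d3, which encodes the glucocorticoid-induced leucine zipper, measured 48.3 to 54.6 FPKM (median 53.1) in vehicle and 667 to 899 FPKM (median 740.2) in Dex with no overlap, and Il6, an LPS-induced cytokine, measured 0 to 0.268 FPKM (median 0.0839) in vehicle and 489 and 524 FPKM in wild type and 369, 269 and 647 FPKM in AMPKa1-/- in LPS.

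All 10 genes of a macrophage marker list were expressed at a mean of at least 1 FPKM in every treatment, and their summed level had a median of 31925 FPKM in vehicle, 36513 in Dex, 19255 in LPS and 33743 in LPS + Dex, most of it from Lyz2 (lysozyme). The members did not move alike between vehicle and LPS + Dex. Medians fell from 1446 to 265.7 FPKM for Cd68, 1834 to 820.7 for C1qa and 2901 to 1109 for C1qb. They also fell from 2283 to 611.7 FPKM for C1qc and 540.3 to 437.8 for Csf1r. Medians were higher in LPS + Dex for Lyz2, Adgre1 (904.1 to 2539 FPKM), Mertk (35.12 to 53.85), Itgam (63.59 to 75.23) and Fcgr1 (71.48 to 79.73). The summed level of 11 neutrophil markers had medians of 16.4 FPKM in vehicle, 15.3 in Dex, 138 in LPS and 566 in LPS + Dex, with Camp as its most abundant gene in LPS and S100a8 in LPS + Dex. Among them, Ly6g, Mpo, Elane, Prtn3, Retnlg and Cxcr2 stayed below 0.5 FPKM in all 23 libraries, whereas the granule genes Ngp and Ltf reached at most 6.559 and 6.198 FPKM in vehicle, 7.56 and 2.74 in Dex, 2.38 and 0.601 in LPS and 3.56 and 0.533 in LPS + Dex. Of 8 lymphocyte markers only Cd4 exceeded a mean of 1 FPKM, with medians of 13.5, 7.80, 0.728 and 1.24 FPKM in vehicle, Dex, LPS and LPS + Dex. The dendritic cell list summed to medians of 169, 29.5, 479 and 229 FPKM in the same order. Its most abundant gene in every treatment was Itgax (CD11c), which macrophages also express. Of the others, Ccr7 rose from a median of 0.0353 FPKM in vehicle to 54.8 in LPS (37.5 to 109.9). Xcr1 went from a median of 0.2415 to 0.9718 FPKM (at most 1.565 in LPS), while Flt3, Zbtb46, Clec9a and Cd209a stayed below 1 FPKM. The fibroblast and stroma list summed to medians of 2.13, 8.21, 11.01 and 4.72 FPKM, with Lum at a median of 3.85 FPKM and Dcn at 3.01 FPKM in LPS, against 0 and 0.0148 FPKM in vehicle. The mast cell and basophil list stayed below a sum of 2 FPKM. The part of these lists in the results was not tested. Pf4, which stood on the list of erythroid and megakaryocyte markers and which macrophages also express, had medians of 256, 64.0, 2259 and 267 FPKM in the same order. In bulk libraries a smaller number of cells of a type and less RNA per cell cannot be told apart. One gene weighed on the scale itself, since Saa3 (serum amyloid A3) held at most 0.0344% of the FPKM sum in vehicle and 0.224% in Dex, but 3.74 to 7.58% in LPS and 16.002 to 23.97% in LPS + Dex. Its part in the levels of the other genes was not tested, and centring each library on its median changed the calls as given under the processing alternatives.

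Non-additivity was widespread. Of 11356 genes tested, 4468 were called for the interaction (39.3%), 2294 of them with LPS + Dex higher than additive (20.2%) and 2174 lower (19.1%). The interaction exceeded 1 log2 unit in 858 of the genes called higher and in 778 of those called lower, and over all genes its median was -0.03. Most genes were moved by at least one agent, as LPS alone raised 2721 genes (24.0%) and lowered 5292 (46.6%), Dex alone raised 1959 (17.3%) and lowered 2180 (19.2%), and Dex on top of LPS raised 2748 and lowered 2704. Thus Dex moved a larger share of the transcriptome with LPS (48% of genes called) than without it (36.4%), a comparison of counts and not of the same test. On the untransformed FPKM scale, 96.6% of the genes called higher and 99.3% of those called lower had an interaction of the same sign.

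**Figure D1:**
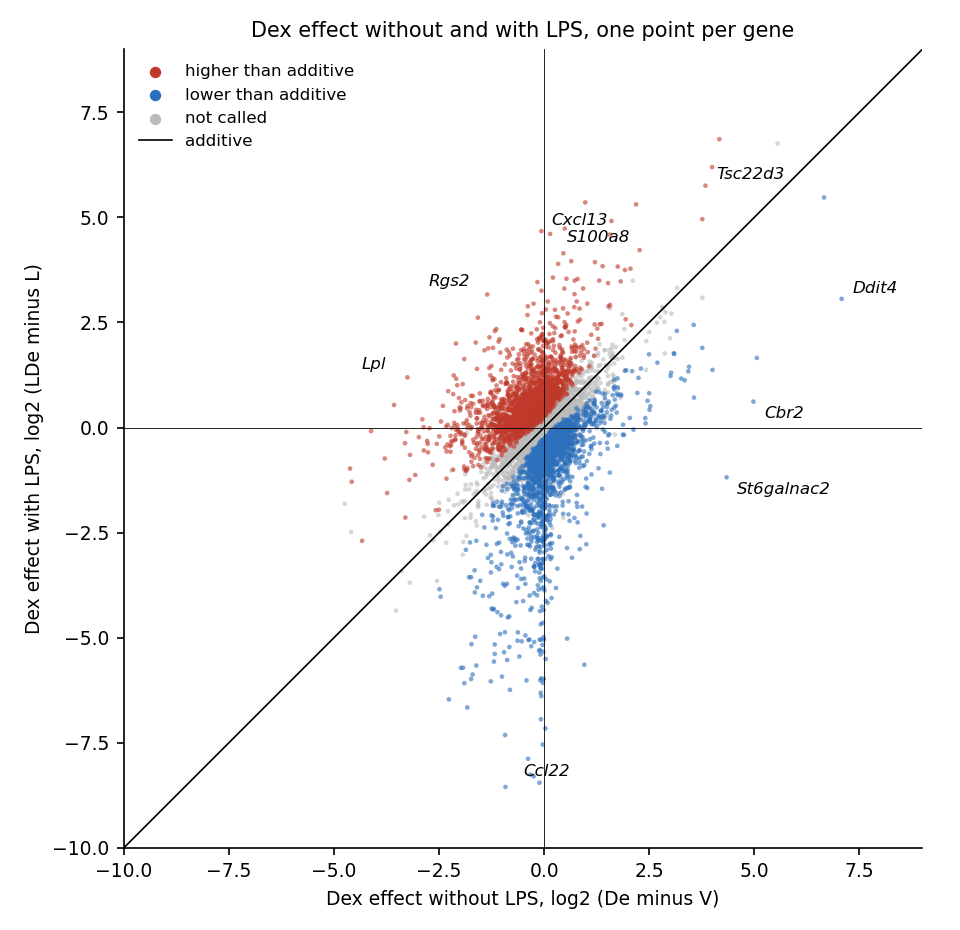
Effect of Dex without LPS (x axis, Dex minus vehicle) against its effect with LPS (y axis, LPS + Dex minus LPS), both in log2(FPKM + 1), with 1 point per gene for the 11356 genes tested and the additive case on the diagonal. The 2294 genes called higher lie above the diagonal and the 2174 called lower lie below it, and the latter reach farther, to -8.34 for Ccl22.

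The effect of Dex in resting macrophages was shared in part by LPS-treated ones. Among the 1959 genes that Dex raised without LPS, 891 were also raised with LPS (45.5%), 830 were not called (42.4%) and 238 were lowered (12.1%). Of the 2180 that Dex lowered without LPS, 893 were also lowered with LPS (41.0%), 900 were not called (41.3%) and 387 were raised (17.8%). A further 1470 genes were raised and 1573 lowered by Dex in the presence of LPS without a call in its absence. A call in only 1 state is not a called difference. The interaction was called in 956 of these 1470 and 1095 of these 1573 genes. It was called in 412 of the 830 and 583 of the 900 genes above whose Dex effect was not called with LPS. Of all genes tested, Dex raised 24.2% and lowered 23.8% with LPS, which is the base for these shares. Of the 2721 genes that LPS raised without Dex, 1690 were raised with it (62.1%, against 22.5% of all genes), and of the 5292 it lowered 4153 were lowered with Dex (78.5%, against 49.3% of all genes). As LPS moved more genes than Dex did, the shares kept were not compared between the agents. Across genes, which are not independent and share libraries within each effect, the Dex effects without and with LPS had a Pearson r of 0.33 and a Spearman rho of 0.27, and the LPS effects without and with Dex 0.72 and 0.71. With LPS present, Dex lowered 1568 of the 2721 LPS-raised genes (57.6%) and raised 1947 of the 5292 LPS-lowered genes (36.8%). The difference between these shares was not tested. Since the LPS libraries enter both effects with opposite signs, sampling error alone gives some opposition.

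The called genes were sorted by which single effects were themselves called. Higher than additive were 541 genes with LPS + Dex above both single treatments and above vehicle (joint rise), 74 that each agent lowered alone and that the other agent raised again (mutual release), 913 lowered by LPS and raised from there by Dex (LPS repression countered by Dex), 278 lowered by Dex and raised from there by LPS (Dex repression countered by LPS), 399 lowered by both agents by less than the sum (shared repression), and 89 others. Lower than additive were 575 genes with LPS + Dex below both single treatments and below vehicle (joint fall), 53 raised by each agent alone and lowered by adding the other (mutual antagonism), 912 raised by LPS and lowered from there by Dex (LPS induction countered by Dex), 420 raised by Dex and lowered from there by LPS (Dex induction countered by LPS), 84 raised by both by less than the sum (shared induction), and 130 others. In LPS induction countered by Dex, LPS + Dex remained above vehicle in 380 genes, did not pass the test against vehicle in 429 and fell below it in 103. Dex alone was not called in 657 of these 912 genes (72.0%). Over all 11356 genes tested it was not called in 7217 and called in 36.4%, which is the base for this share and the next. In LPS repression countered by Dex, LPS + Dex stayed below vehicle in 572 genes, was not called against it in 284 and exceeded it in 57, and Dex alone was not called in 573 (62.8%). The 6 LPS + Dex libraries lay above all 17 others in 340 genes (2.99% of those tested) and below all others in 323 (2.84%).

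**Figure D2:**
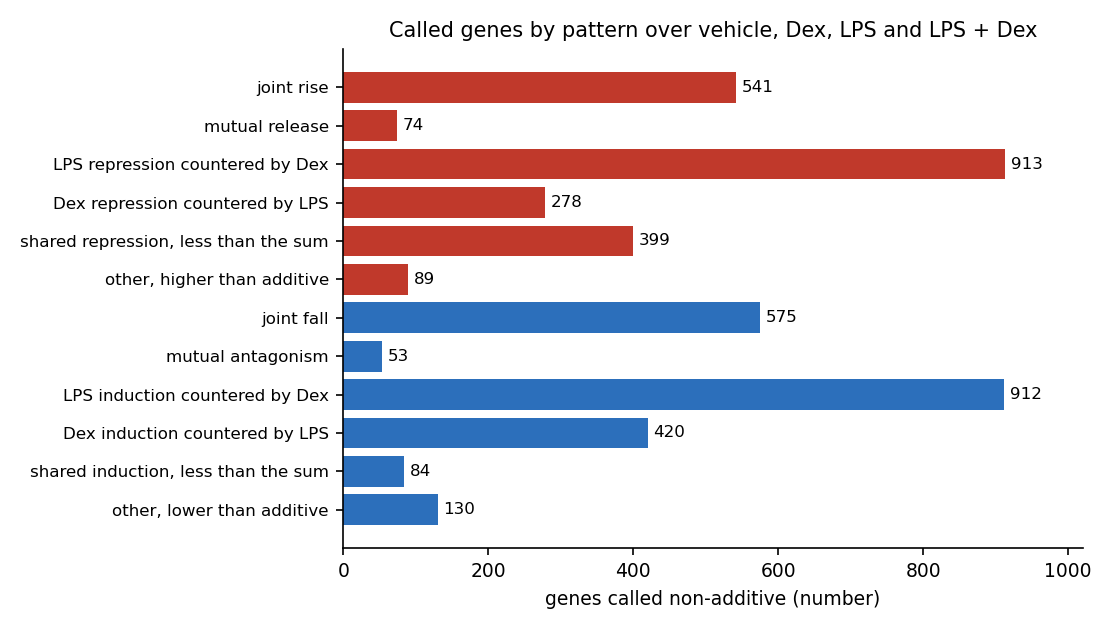
Number of called genes in each of the 12 classes (horizontal bars from 0), with the classes higher than additive and lower than additive in separate colours. LPS repression countered by Dex (913) and LPS induction countered by Dex (912) held the most genes, and mutual antagonism (53) the fewest.

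The promoters of genes at either end of the scale are printed for reference, because they show the letters that the sequence search below could and could not find. They are the 250 bases before the start of the RefSeq gene on the coding strand (GRCm38.p6). Capitals mark a match to 1 of 5 motifs searched on both strands: the glucocorticoid response element core ACANNNTGT, an NF-kB-like GGGANTTTC, an interferon response element-like GAAANNGAA, a C/EBP-like TTGCNNAA and an AP-1-like TGANTCA. Cxcl13 (chr5:95956689-95956938, + strand) and Rgs2 (chr1:144004150-144004399, - strand) had the highest interactions, Ccl22 (chr8:94745434-94745683, + strand) and Cxcl3 (chr5:90785851-90786100, + strand) the lowest.
Cxcl13: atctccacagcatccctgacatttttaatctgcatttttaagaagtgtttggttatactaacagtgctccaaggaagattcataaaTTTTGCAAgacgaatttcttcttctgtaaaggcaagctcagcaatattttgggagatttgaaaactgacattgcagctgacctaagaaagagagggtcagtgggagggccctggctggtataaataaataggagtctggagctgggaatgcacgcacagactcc
Rgs2: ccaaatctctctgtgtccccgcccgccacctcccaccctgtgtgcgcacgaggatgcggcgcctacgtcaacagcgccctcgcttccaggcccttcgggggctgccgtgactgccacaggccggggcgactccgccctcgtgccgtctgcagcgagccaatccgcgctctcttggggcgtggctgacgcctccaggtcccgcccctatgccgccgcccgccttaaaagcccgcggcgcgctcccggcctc
Ccl22: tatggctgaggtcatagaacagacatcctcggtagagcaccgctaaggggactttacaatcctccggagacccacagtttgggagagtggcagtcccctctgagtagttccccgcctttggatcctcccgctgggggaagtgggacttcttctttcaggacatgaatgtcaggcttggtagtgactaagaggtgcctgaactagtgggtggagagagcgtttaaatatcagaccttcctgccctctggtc
Cxcl3: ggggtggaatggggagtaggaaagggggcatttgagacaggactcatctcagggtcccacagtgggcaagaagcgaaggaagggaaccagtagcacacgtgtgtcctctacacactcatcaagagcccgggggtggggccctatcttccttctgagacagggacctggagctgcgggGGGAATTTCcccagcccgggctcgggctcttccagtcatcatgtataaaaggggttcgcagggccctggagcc
The window of Cxcl13 held a C/EBP-like match on the reverse strand, 164 to 157 bases before the start, and that of Cxcl3 an NF-kB-like match on the coding strand, 73 to 65 bases before the start. None of the 5 motifs occurred in the windows of Rgs2 and Ccl22, which says only that these letters are not there.

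Among the genes that rose jointly, Cxcl13, a chemokine that attracts B cells, had the highest interaction of all genes. It measured 0 to 0.593 FPKM (median 0.275) in vehicle, 0.0545 to 0.902 FPKM (median 0.132) in Dex, 3.76 and 1.35 FPKM in wild type and 0.752, 3.50 and 0.175 FPKM in AMPKa1-/- in LPS, and 10.7 to 159.9 FPKM (median 87.8) in LPS + Dex. The LPS + Dex libraries did not overlap the others, while neither agent alone brought the gene above a few FPKM. The interaction was 4.74 ± 0.64 (SE) (adjusted p = 2.9e-06), with 4.67 for Dex on top of LPS and -0.07 for Dex alone. S100a8, a subunit of the alarmin calprotectin, went from 1.09 to 11.3 FPKM (median 6.02) in vehicle and 1.10 to 19.1 FPKM (median 6.16) in Dex to 301 to 1147 FPKM (median 529) in LPS + Dex, whereas LPS alone gave 27.0 and 10.6 FPKM in wild type and 33.0, 24.0 and 17.4 FPKM in AMPKa1-/- (interaction 4.46 ± 0.67 (SE), adjusted p = 1.2e-05). Its partner subunit S100a9 did not follow, with medians of 4.27, 5.39, 2.83 and 1.51 FPKM in vehicle, Dex, LPS and LPS + Dex, and was not called. Prss16, a serine protease best known from the thymus, had medians of 0.393, 1.58, 0.229 and 51.7 FPKM in the same order (interaction 4.38 ± 0.30 (SE)). Chchd10, which encodes a small protein of the mitochondrial intermembrane space, had medians of 3.85, 5.13, 1.65 and 71.2 FPKM (interaction 4.24 ± 0.23 (SE)). Of the 541 genes in this class, 288 had all LPS + Dex libraries above all others, and 67 were below a mean of 1 FPKM in vehicle.

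Acute-phase proteins and alarmins were prominent in this class. Of 17 tested members of that list, 10 were called higher and 1 lower, with a median interaction of 1.32, against 20.2%, 19.1% and -0.03 over all genes. The list has 25 genes, and some of those tested, such as Steap4, passed the expression filter only through the treatment in which they were high. The share called higher is therefore a description and not independent of the filter. Steap4, a metalloreductase, was near 0 with either agent and reached a median of 4.67 FPKM with both (interaction 2.39 ± 0.16 (SE)). Serpina3g, a serine protease inhibitor, had medians of 10.54 FPKM in LPS and 50.5 in LPS + Dex (interaction 2.08 ± 0.24 (SE)). The metallothioneins Mt1 and Mt2, which bind zinc and copper, had medians of 309.7, 599, 187 and 1118 FPKM and of 53.0, 237, 148 and 1719 FPKM in vehicle, Dex, LPS and LPS + Dex, with interactions of 1.92 and 1.73. Saa1, Saa2, Orm1, Cp, Ptx3 and S100a8 made up the other genes called higher, and Orm2 was the gene called lower (-0.71). Saa3, Hp and Lcn2 reached the highest levels of the list in LPS + Dex without a call. A missing call does not show additivity. The interactions of Hp and Lcn2 were about as large as those called for Saa1 (1.32) and Ptx3 (1.275). Hp (haptoglobin) had medians of 4.77, 348, 121 and 15130.0 FPKM, and Lcn2 (lipocalin 2) of 3.75, 19.9, 1706 and 17340.0 FPKM, so that each agent raised them (interactions 1.21 ± 0.48 (SE), adjusted p = 0.0524, and 1.38 ± 0.57 (SE), adjusted p = 0.0589). The closely related Saa1 and Saa2 share sequence, and how the counting divided their fragments is not stated.

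**Figure D3:**
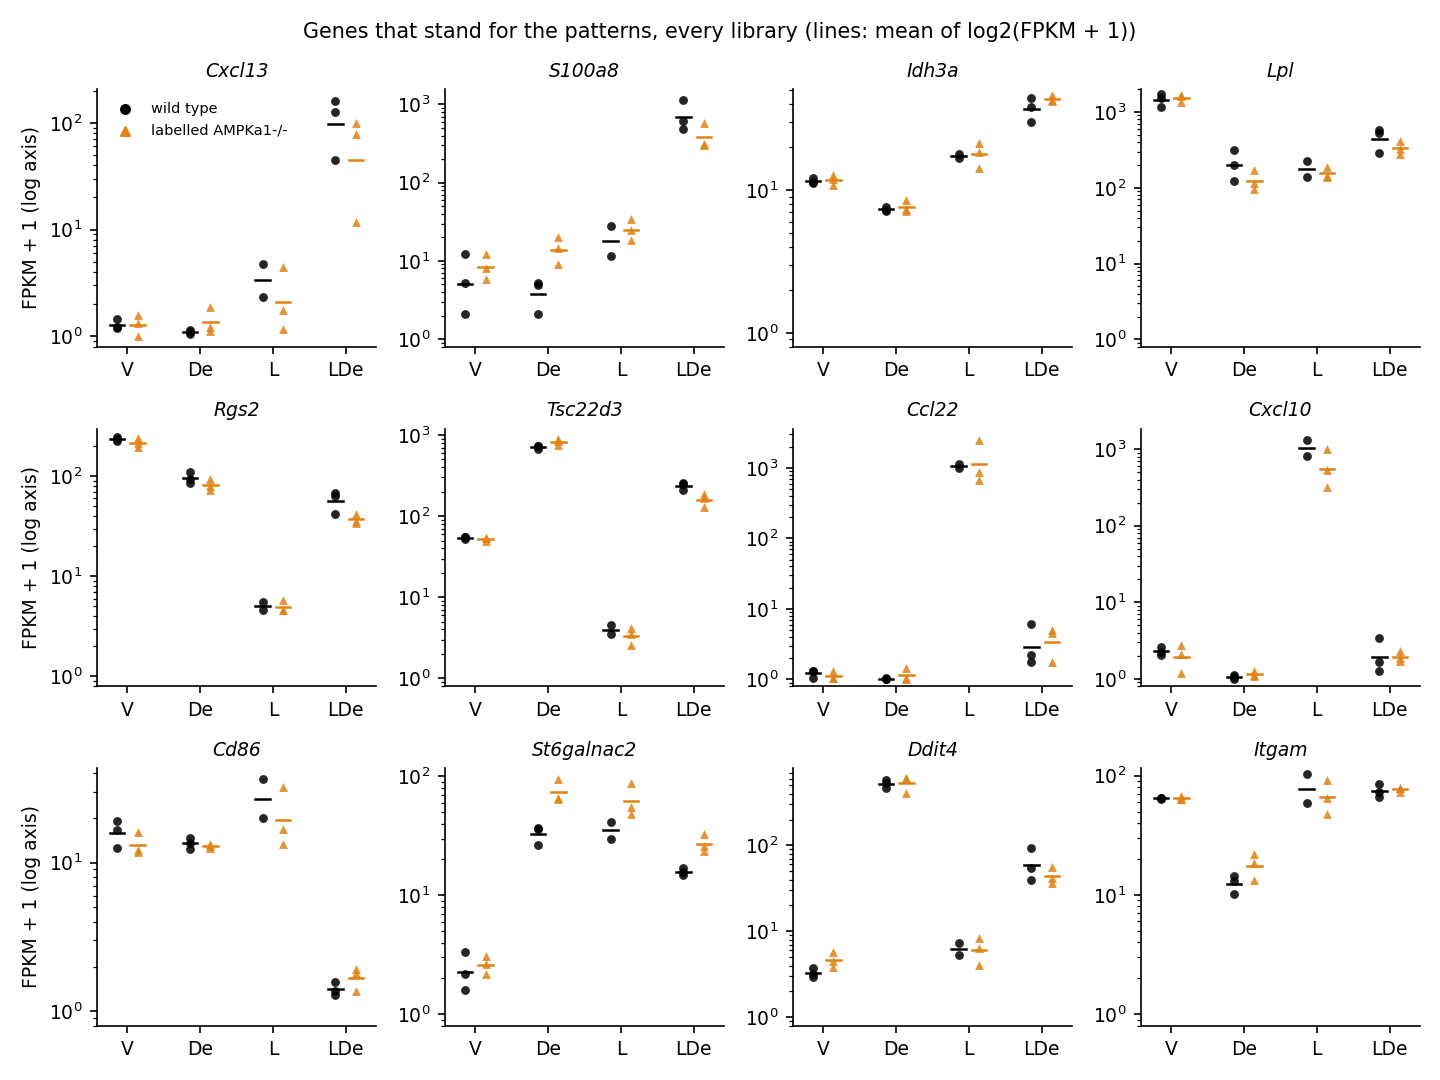
FPKM + 1 (log axis) of 12 genes in each of the 23 libraries under vehicle (V), Dex (De), LPS (L) and LPS + Dex (LDe), with wild type as circles, AMPKa1-/- as triangles and lines at the mean of log2(FPKM + 1). Cxcl13 and S100a8 rise in LPS + Dex. Lpl and Rgs2 fall with either agent and in LPS + Dex lie above LPS, with Rgs2 still below Dex alone. Ccl22 and Cxcl10 rise in LPS and are low again in LPS + Dex, and the circles and triangles lie close together in most panels.

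Among the 23 gene lists, those of the respiratory chain and the TCA cycle held the most genes of the joint rise. Of 21 tricarboxylic acid (TCA) cycle genes tested, 20 were called higher (95.2%, against 20.2% of all genes) and none lower, 15 of them as a joint rise, with a median interaction of 0.71. Of 71 tested nuclear genes of the respiratory chain and ATP synthase, 58 were called higher (81.7%) and none lower, 53 of them as a joint rise (median 0.77). With each genotype fitted alone, 56 of the respiratory chain genes were called higher in wild type (median 1.02) and 28 in AMPKa1-/- (median 0.49), and 15 and 12 of the TCA cycle genes, although the genotype difference itself was not called for any gene. The interactions were mostly below 1 log2 unit and the replicate spread was small at these levels. Idh3a, the catalytic subunit of NAD-dependent isocitrate dehydrogenase, measured 9.76 to 11.7 FPKM (median 10.7) in vehicle, 6.13 to 7.54 FPKM (median 6.31) in Dex, 16.9 and 15.8 FPKM in wild type and 20.2, 17.4 and 13.3 FPKM in AMPKa1-/- in LPS, and 29.0 to 45.4 FPKM (median 41.3) in LPS + Dex. Its LPS + Dex libraries lay above all others, and Dex by itself lowered the gene (interaction 1.84 ± 0.14 (SE), adjusted p = 5.0e-10). Mdh1, cytosolic malate dehydrogenase, had medians of 155, 111, 111 and 285 FPKM (interaction 1.97 ± 0.19 (SE)). Sdhd, the membrane anchor of succinate dehydrogenase, rose from medians of 96.5 FPKM in vehicle and 85.4 in LPS to 203 in LPS + Dex (interaction 0.93 ± 0.14 (SE)). Suclg1, of succinyl-CoA synthetase, had an interaction of 0.56 ± 0.14 (SE), and the complex I subunit Ndufa12 one of 0.94 ± 0.16 (SE).

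Not every subunit behaved alike. Ndufa6, another complex I subunit, had medians of 124, 163, 115 and 143 FPKM and an interaction of -0.00 ± 0.17 (SE), which was not called, and 13 of the 71 respiratory chain genes were not called. Cyc1 (cytochrome c1) and Atp5g3 (the ring of ATP synthase) had interactions of 1.09 ± 0.11 (SE) and 1.21 ± 0.15 (SE). Cox7a1, a subunit of cytochrome c oxidase, went another way, lowered by each agent alone and not called against vehicle with both, with medians of 11.04, 5.28, 4.65 and 17.0 FPKM (interaction 2.54 ± 0.34 (SE)). The protein-coding genes of the mitochondrial genome, a group looked at after its values had been seen, gave 11 genes called higher of 12 tested (median 1.58), against 20.2% of all genes. mt-Nd1 had medians of 1469.7, 1142, 1005 and 2927 FPKM and mt-Cytb of 1546, 1141, 505 and 1964 FPKM. The mitochondrial ribosomal RNAs moved in the opposite direction: mt-Rnr1 had medians of 228, 387, 889 and 226 FPKM and an interaction of -2.83 ± 0.23 (SE), and mt-Rnr2 of 157, 331, 475 and 152 FPKM and -2.40. How the libraries were depleted of ribosomal RNA or selected for poly(A) is not stated in the sources used here.

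Mutual release held genes that either agent lowered and that stood higher with both than with either. Lpl, which encodes lipoprotein lipase, measured 1178 to 1737 FPKM (median 1564) in vehicle, 94.2 to 315 FPKM (median 148) in Dex, 227 and 139.7 FPKM in wild type and 139.8, 139 and 189 FPKM in AMPKa1-/- in LPS, and 279 to 572 FPKM (median 368) in LPS + Dex. The vehicle libraries lay above all others, and with both agents the median stood between vehicle and the single treatments, while the ranges of Dex and of LPS + Dex overlapped (interaction 4.45 ± 0.32 (SE), adjusted p = 2.2e-10). Fos, a subunit of AP-1, had medians of 55.3, 16.9, 8.61 and 49.8 FPKM in vehicle, Dex, LPS and LPS + Dex (interaction 4.19 ± 0.29 (SE)). Its vehicle levels differed by label, with 38.2, 39.9 and 40.9 FPKM in wild type and 69.8, 76.6 and 73.0 FPKM in AMPKa1-/-. With both agents it measured 51.9, 78.7 and 32.4 FPKM in wild type and 45.1, 47.7 and 85.8 FPKM in AMPKa1-/-. These values lay on both sides of the vehicle level of their own genotype. Clec4b1, a C-type lectin, had medians of 16.6, 3.05, 0.320 and 4.51 FPKM (interaction 4.10 ± 0.29 (SE)). Pycard, the adaptor that joins inflammasome sensors to caspase-1, had medians of 22.0, 11.4, 7.05 and 24.6 FPKM (interaction 2.63 ± 0.22 (SE)), and Mcm5, of the replicative helicase, of 11.7, 2.64, 3.78 and 6.52 FPKM (interaction 2.53 ± 0.31 (SE)). LPS + Dex did not pass the test against vehicle in 56 of the 74 genes and stayed below it in 18.

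The largest class of the genes higher than additive, 913 of 2294, had been lowered by LPS and was raised from there by Dex. Rgs2, a regulator of G protein signalling, measured 193 to 244 FPKM (median 229) in vehicle, 71.2 to 109.9 FPKM (median 87.9) in Dex, 4.49 and 3.61 FPKM in wild type and 3.66, 4.80 and 3.56 FPKM in AMPKa1-/- in LPS, and 33.0 to 66.7 FPKM (median 41.1) in LPS + Dex. The treatments did not overlap, and Dex lowered Rgs2 in resting cells (-1.35) but raised it in the presence of LPS (3.17), with an interaction of 4.52 ± 0.18 (SE) and an adjusted p of 1.2e-14. Ckb, the brain-type creatine kinase, behaved likewise with medians of 399, 110.2, 28.5 and 104 FPKM (interaction 3.65 ± 0.30 (SE)), as did the interleukin-7 receptor gene Il7r with 42.0, 17.7, 2.36 and 18.3 FPKM (interaction 3.48 ± 0.36 (SE)). Ldhb, a subunit of lactate dehydrogenase, fell from 28.8 to 2.27 FPKM in LPS and stood at 21.5 FPKM in LPS + Dex (interaction 3.07 ± 0.24 (SE)). Ggt5, a gamma-glutamyltransferase that acts on glutathione conjugates and leukotriene C4, had medians of 6.62, 4.26, 0.606 and 7.83 FPKM (interaction 2.84 ± 0.30 (SE)). Cebpa, a transcription factor of the myeloid lineage, and Tlr13, an endosomal receptor for bacterial ribosomal RNA, had interactions of 1.80 ± 0.16 (SE) and 2.36 ± 0.29 (SE). Restoration was far from complete for Gas6, a ligand of the Mer and Axl receptors, with medians of 254, 156, 2.58 and 4.10 FPKM (interaction 1.33 ± 0.22 (SE)).

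Dex alone raised 136 genes of this class, and in 58 of them (42.6%) the sign of the interaction was the opposite on the FPKM scale. Tsc22d3 had 48.3 to 54.6 FPKM (median 53.1) in vehicle, 667 to 899 FPKM (median 740.2) in Dex, 2.48 and 3.50 FPKM in wild type and 1.56, 3.16 and 2.50 FPKM in AMPKa1-/- in LPS, and 129 to 257 FPKM (median 198) in LPS + Dex. The libraries of the 4 treatments did not overlap. The fold of Dex was greater with LPS, since LPS had brought the gene close to 0, and the log2 interaction was 1.92 ± 0.19 (SE) (adjusted p = 4.3e-08). In FPKM the rise was smaller with LPS, which gave an interaction of -519 FPKM. Glul, which encodes glutamine synthetase, had medians of 782, 2507, 60.8 and 851 FPKM, a log2 interaction of 2.08 ± 0.13 (SE) and one of -989.5 in FPKM. Timp2, an inhibitor of metalloproteinases, changed sign in the same way.

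LPS in turn countered the lowering by Dex in 278 genes, in which LPS + Dex lay above vehicle in 120, was not called against it in 107 and stayed below it in 51. Itgam, the integrin chain CD11b of myeloid cells, measured 62.5 to 66.2 FPKM (median 63.6) in vehicle, 9.12 to 20.95 FPKM (median 12.8) in Dex, 102 and 57.5 FPKM in wild type and 64.1, 91.5 and 47.1 FPKM in AMPKa1-/- in LPS, and 64.9 to 83.8 FPKM (median 75.2) in LPS + Dex. Only the Dex libraries stood apart, below all others (interaction 2.25 ± 0.24 (SE), adjusted p = 7.9e-08). Tnip3, an A20-binding inhibitor of NF-kB, had medians of 47.5, 4.75, 102 and 86.4 FPKM (interaction 2.94 ± 0.25 (SE)), and the chemokine gene Cxcl14 of 50.4, 5.74, 38.1 and 34.3 FPKM (interaction 2.88 ± 0.27 (SE)). Dusp6, a phosphatase specific for ERK, fell to 4.03 FPKM in Dex from 13.4 FPKM in vehicle and stood at 13.6 FPKM in LPS + Dex (interaction 1.49 ± 0.16 (SE)). Uhrf1, which maintains DNA methylation at replication, was only partly restored, with medians of 8.58, 0.787, 2.44 and 2.83 FPKM (interaction 2.60 ± 0.42 (SE)).

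Glycolytic genes fell partly into this class. Of 24 tested genes of glycolysis and lactate export, 10 were called higher (41.7%, against 20.2% of all genes) and 4 lower (16.7%, near the 19.1% of all genes), with a median of 0.44, and 11 were called higher in wild type alone and 3 in AMPKa1-/- alone. Pkm, the muscle-type pyruvate kinase, had medians of 928, 434, 963 and 1108 FPKM (interaction 1.11 ± 0.18 (SE)), and Ldha, the other lactate dehydrogenase subunit, of 695, 385, 1554 and 1660 FPKM (interaction 1.02 ± 0.25 (SE)), each lowered by Dex in resting cells and not in LPS-treated cells. Hk2, hexokinase 2, was among the 4 called lower (-1.21 ± 0.22 (SE)), and Hif1a, the transcription factor that drives many of these genes, had medians of 23.9, 25.5, 122 and 67.1 FPKM with an interaction of -0.96 ± 0.21 (SE). Pfkfb4, a regulator of fructose 2,6-bisphosphate, was lowered by both agents to about the same level as by either (43.2, 22.2, 21.7 and 20.0 FPKM).

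Shared repression by less than the sum was found in 399 genes, in 133 of which (33.3%) LPS or Dex alone had already brought the mean below 1 FPKM. A positive interaction then has little room to mean release, since a level near 0 cannot fall further. Ccnd1, cyclin D1, had medians of 44.7, 2.75, 0.871 and 1.41 FPKM (interaction 4.11 ± 0.31 (SE)), and Pcp4l1 of 21.2, 0.459, 0.288 and 0.236 FPKM (interaction 4.03 ± 0.17 (SE)). Ciita, the master activator of MHC class II genes, had medians of 9.05, 0.161, 0.208 and 0.0119 FPKM (interaction 2.75 ± 0.22 (SE)), and the class II chain gene H2-Aa of 351, 14.3, 39.8 and 23.8 FPKM (interaction 3.64 ± 0.91 (SE)). In the list of class II presentation and costimulation, 7 of 15 tested genes were called higher (46.7%, against 20.2% of all genes) and 5 lower (33.3%, against 19.1%), with a median of 1.71, while 5 were called higher in wild type alone and 3 in AMPKa1-/- alone. The list had H2-Aa, H2-Eb1, H2-DMa, H2-DMb1, Cd74, Ciita and Cd80 called higher and Cd40, Cd86, Cd274, Ctss and H2-Ob lower. The clock output factor Dbp had medians of 18.7, 1.56, 0.451 and 0.324 FPKM (interaction 2.38 ± 0.23 (SE)). Of 26 cell cycle genes tested, 23 were called higher (88.5%, against 20.2% of all genes) and 2 lower (median 1.35), with 14 called higher in wild type alone and 21 in AMPKa1-/- alone. Pcna, the sliding clamp of DNA polymerase, had medians of 496, 118, 111 and 98.9 FPKM (interaction 1.90 ± 0.15 (SE)), whereas Rrm2, of ribonucleotide reductase, was raised from LPS by Dex, with medians of 15.7, 2.74, 0.994 and 3.14 FPKM (interaction 3.25 ± 0.37 (SE)).

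The strongest departures from additivity were LPS inductions that Dex countered. Ccl22, a chemokine for regulatory T cells and type 2 helper T cells, measured 0.0361 to 0.317 FPKM (median 0.167) in vehicle, 0 to 0.461 FPKM (median 0.0180) in Dex, 1132 and 1010.3 FPKM in wild type and 679.9, 865 and 2457 FPKM in AMPKa1-/- in LPS, and 0.764 to 5.17 FPKM (median 2.39) in LPS + Dex. The LPS libraries stood far above all others, and the effect of Dex was -8.45 with LPS and -0.11 without (interaction -8.34 ± 0.43 (SE), adjusted p = 1.1e-12). Cxcl3, a neutrophil chemoattractant, had medians of 0.213, 0.0234, 873 and 1.59 FPKM (interaction -8.05 ± 0.34 (SE)). Il1a, of interleukin-1 alpha, had 0.378, 0.236, 1734 and 4.84 FPKM (interaction -7.93 ± 0.33 (SE)), and Cxcl10, a ligand of CXCR3, had 1.17, 0.0978, 813 and 0.778 FPKM (interaction -7.63 ± 0.38 (SE)). The p40 chain gene Il12b, Ptgs2 (cyclooxygenase-2), Serpinb2 (plasminogen activator inhibitor 2), Il6, Ccl17 and Ccl2 completed the 10 lowest, with interactions from -6.39 to -7.51. All had medians of at least 289 FPKM in LPS and at most 5.17 FPKM in LPS + Dex. For genes near 0 in vehicle a fall by Dex could not register without LPS, so that the interaction there is close to the effect of Dex on the LPS-induced level; 177 of the 912 genes had a vehicle mean below 1 FPKM.

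Chemokines and cytokines were not countered to an equal degree. Of 25 chemokine genes tested, 19 were called lower (76.0%, against 19.1% of all genes) and 2 higher (8%, against 20.2%), with a median of -3.07. Of 23 cytokine and inflammatory enzyme genes 18 were lower (78.3%) and 2 higher (8.70%), with a median of -2.82. Tnf itself was not called: it measured 7.75 to 13.8 FPKM (median 10.96) in vehicle, 0.121 to 0.716 FPKM (median 0.209) in Dex, 331 and 455 FPKM in wild type and 336, 247 and 779.7 FPKM in AMPKa1-/- in LPS, and 20.8 to 42.4 FPKM (median 29.5) in LPS + Dex. Dex lowered Tnf by similar log2 amounts in both states, by -3.19 without and -3.69 with LPS (interaction -0.50 ± 0.31 (SE), adjusted p = 0.209). With 0.1 FPKM added in place of 1, its interaction was 1.17 (adjusted p = 0.0297), so the direction rests on how levels near 0 in Dex are handled. Ccl5, which recruits T cells and monocytes, kept a median of 1320 FPKM in LPS + Dex against 4094 in LPS (interaction -1.58 ± 0.61 (SE)), and Acod1, which makes itaconate, 287 against 1313 FPKM (interaction -0.99 ± 0.33 (SE)). Inhba, a subunit of activin A, and Hdc, histidine decarboxylase, in contrast returned to 0.0659 and 0.211 FPKM from 65.8 and 77.4 FPKM. Il10 and Tnfsf9 were the 2 cytokine genes called higher, the former with medians of 3.37, 1.13, 1.51 and 3.33 FPKM (interaction 1.65 ± 0.32 (SE)).

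The interferon-stimulated genes were called without exception over both genotypes. All 37 tested were lower than additive (median -3.27; 35 of them called in wild type alone and 37 in AMPKa1-/- alone), against 19.1% of all genes, as were all 12 tested interferon-inducible GTPases (median -3.17), and they were called lower under median centring and quantile normalization as well. Usp18, which removes ISG15 and dampens the type I interferon receptor, measured 4.56 to 12.4 FPKM (median 10.1) in vehicle, 2.98 to 7.23 FPKM (median 4.68) in Dex, 391 and 441 FPKM in wild type and 351, 259.7 and 521 FPKM in AMPKa1-/- in LPS, and 1.96 to 10.7 FPKM (median 3.70) in LPS + Dex (interaction -5.43 ± 0.34 (SE), adjusted p = 2.0e-11). Thus LPS + Dex overlapped the range without LPS. Isg20, an exonuclease against viral RNA, had medians of 2.99, 2.43, 379 and 7.70 FPKM (interaction -5.31 ± 0.34 (SE)), and Gbp4, a guanylate-binding protein, of 0.121, 0.0518, 25.9 and 0.124 FPKM (interaction -4.60 ± 0.24 (SE)). Irgm1, of the immunity-related GTPases, was near its vehicle level with both agents, with medians of 16.04, 16.3, 111 and 14.01 FPKM (interaction -2.91 ± 0.16 (SE)), while Gbp6 did so less, with 0.210, 0.0857, 20.4 and 2.73 FPKM (-2.25). Stat2, which carries the type I interferon signal to the nucleus, fell from a median of 73.6 FPKM in LPS to 10.3 in LPS + Dex (interaction -2.38 ± 0.16 (SE)). Members such as Ifit3 and Ifit3b are near copies, and the division of fragments between them is uncertain.

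The same class held genes of other roles. Nos2, the inducible nitric oxide synthase, had medians of 0.0136, 0, 46.0 and 0.214 FPKM (interaction -5.32 ± 0.32 (SE)), and of 11 arginine metabolism genes tested 7 were called lower (63.6%, against 19.1% of all genes) and 1 higher (median -1.04). Olr1, a scavenger receptor for oxidized LDL, had medians of 0.0198, 0, 3.57 and 0.119 FPKM (interaction -2.19 ± 0.30 (SE)). Cish, a feedback inhibitor of cytokine receptors, and Dusp16, a phosphatase for JNK, had interactions of -4.21 ± 0.14 (SE) and -2.69 ± 0.23 (SE). Ccr7, the receptor that guides cells to lymph nodes and a gene of the dendritic cell list, had medians of 0.0353, 0, 54.8 and 0.765 FPKM (interaction -5.13 ± 0.26 (SE)). Camp, which encodes the cathelicidin antimicrobial peptide, had medians of 0.810, 0.631, 113 and 33.8 FPKM (interaction -1.56 ± 0.39 (SE)), a call that was lost with a pseudocount of 0.1 (-1.22, adjusted p = 0.285) and in wild type alone (-1.15, adjusted p = 0.0530). Among genes of sterol and fatty acid synthesis 9 of 25 were called lower (36.0%, against 19.1% of all genes) and none higher (median -0.51), so that the share called in either direction was close to the 39.3% of all genes, and 3 were called lower in wild type alone and 6 in AMPKa1-/- alone. An example is Insig1, a sterol-sensing brake on SREBP processing, with 16.5, 22.4, 88.6 and 51.5 FPKM (interaction -1.36 ± 0.22 (SE)).

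In the joint fall, 575 genes lay below vehicle, Dex and LPS when both agents were present. Cd86, a costimulatory ligand of CD28, measured 10.8 to 18.02 FPKM (median 13.3) in vehicle, 11.4 to 13.6 FPKM (median 12.1) in Dex, 18.9 and 35.7 FPKM in wild type and 15.8, 12.3 and 31.1 FPKM in AMPKa1-/- in LPS, and 0.296 to 0.919 FPKM (median 0.471) in LPS + Dex. The LPS + Dex libraries were below all others, whereas Dex without LPS had an effect of -0.13 ± 0.19 (SE) (interaction -3.72 ± 0.27 (SE), adjusted p = 3.0e-10). Mmp13, a collagenase, had medians of 7.27, 2.07, 64.2 and 0.295 FPKM (interaction -4.05 ± 0.31 (SE)), and Timp1, an inhibitor of such enzymes, of 1.52, 2.64, 10.6 and 0.506 FPKM (interaction -3.27 ± 0.49 (SE)). Ccl7, a monocyte chemokine, and Ifi44l, an interferon-stimulated gene, ended below vehicle after having been raised by LPS, with medians of 0.915, 0.794, 94.1 and 0.190 FPKM and of 21.6, 10.4, 157 and 2.39 FPKM (interactions -5.92 ± 0.29 (SE) and -4.65 ± 0.32 (SE)). Traf6, the ubiquitin ligase downstream of TLR and IL-1 receptors, and Ikbkb, the catalytic kinase of the NF-kB pathway, had interactions of -1.89 ± 0.18 (SE) and -1.17 ± 0.13 (SE). Klf6, a zinc-finger factor, had medians of 95.1, 136, 59.8 and 32.6 FPKM (interaction -1.49 ± 0.22 (SE)). All LPS + Dex libraries lay below all others in 224 of these genes.

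Mutual antagonism was the rarest class by this definition, but not from signs alone or among interactions of at least 1 in size. St6galnac2, a sialyltransferase, measured 0.595 to 2.33 FPKM (median 1.40) in vehicle, 25.2 to 94.9 FPKM (median 49.4) in Dex, 40.5 and 28.8 FPKM in wild type and 47.7, 54.8 and 87.2 FPKM in AMPKa1-/- in LPS, and 13.8 to 31.6 FPKM (median 19.3) in LPS + Dex. Either agent raised it, and the combination stood lower than either by the test, although the ranges overlapped (interaction -5.53 ± 0.29 (SE), adjusted p = 1.1e-12). Creb5, a transcription factor of the CREB family, had medians of 3.68, 7.29, 22.8 and 3.48 FPKM (interaction -3.05 ± 0.22 (SE)). Stat3, which transmits signals of interleukin-6 and interleukin-10, had medians of 81.2, 115, 176 and 82.3 FPKM (interaction -1.48 ± 0.18 (SE)), back at its vehicle level with both agents. LPS + Dex was not called against vehicle in 48 of these 53 genes.

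In 420 genes LPS countered an induction by Dex. Ddit4, which encodes the mTORC1 inhibitor REDD1, measured 1.94 to 4.68 FPKM (median 2.79) in vehicle, 409 to 608 FPKM (median 549) in Dex, 4.30 and 6.35 FPKM in wild type and 5.35, 7.44 and 3.01 FPKM in AMPKa1-/- in LPS, and 35.1 to 93.5 FPKM (median 47.4) in LPS + Dex. Dex still raised it with LPS, but less (3.06 against 7.08 without LPS), for an interaction of -4.02 ± 0.31 (SE) and an adjusted p of 5.7e-10. Cbr2, a carbonyl reductase, lost its response to Dex almost entirely, with medians of 13.3, 395, 1.74 and 2.46 FPKM (interaction -4.36 ± 0.50 (SE)). Gpx3, the secreted glutathione peroxidase, had medians of 14.6, 164, 5.24 and 8.62 FPKM (interaction -2.85 ± 0.28 (SE)), and Jaml, a junctional adhesion molecule of leukocytes, of 2.51, 106, 2.97 and 13.8 FPKM (interaction -3.41 ± 0.34 (SE)). Mertk, the receptor by which macrophages take up apoptotic cells, rose to a median of 167 FPKM in Dex but to 53.9 FPKM in LPS + Dex (interaction -1.06 ± 0.20 (SE)). LPS + Dex lay below vehicle in 223 of the 420 genes, above it in 48 and was not called in 149. Where both agents raised a gene by less than the sum, as for Cd38, an NAD glycohydrolase, with medians of 0.602, 2.60, 114 and 104 FPKM (interaction -1.57 ± 0.27 (SE)), and Vcan, a matrix proteoglycan, with 0.702, 6.91, 19.1 and 15.5 FPKM (interaction -2.04 ± 0.58 (SE)), the combination was near the level of LPS alone. BC018473 had medians of 0.381, 20.4, 54.2 and 124 FPKM, with a log2 interaction of -2.64 ± 0.29 (SE) but one of 60.65 on the FPKM scale.

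The classical glucocorticoid targets differed in direction. Of 17 such genes tested, 4 were called higher, 7 lower and 6 not at all (median -0.61), so that the share called higher (23.5%) was near that of all genes (20.2%) and the share called lower (41.2%) above it (19.1%). In AMPKa1-/- alone 4 were called lower, and in wild type alone 8. Of the 4 called higher, Rgs2 and Anxa1 (annexin A1) were lowered by Dex alone (-1.35 and -1.43), and Tsc22d3 and Glul had the opposite sign on the FPKM scale, so that the count does not describe a greater induction. Dusp1, the phosphatase of p38 and JNK, was not called, with 15.8 to 32.8 FPKM (median 25.2) in vehicle, 175 to 237 FPKM (median 195) in Dex, 48.4 and 55.5 FPKM in wild type and 37.5, 52.3 and 52.0 FPKM in AMPKa1-/- in LPS, and 249 to 400.0 FPKM (median 320.1) in LPS + Dex. Its highest levels occurred with both agents, and the Dex effect was 3.03 without and 2.71 with LPS (interaction -0.32 ± 0.23 (SE), adjusted p = 0.305). In wild type alone, Dusp1 was called lower (-0.74, adjusted p = 0.0390), and in AMPKa1-/- alone it was not (0.05, adjusted p = 0.903), while the difference between the genotypes (0.79 ± 0.37 (SE)) was not called (adjusted p = 0.346). Fkbp5, a co-chaperone of the glucocorticoid receptor, had medians of 2.17, 334, 4.24 and 249 FPKM (interaction -1.19 ± 0.18 (SE)), and the clock gene Per1 of 8.16, 44.5, 9.45 and 25.8 FPKM (interaction -0.90 ± 0.23 (SE)). Sgk1, a kinase, and Cd163, a hemoglobin scavenger receptor, were not called (-0.10 and 0.16), although LPS lowered the level of Cd163 from a median of 3.92 to 0.0650 FPKM. Nfkbia, the inhibitor of NF-kB that both agents raised alone, had medians of 46.7, 77.7, 562 and 343 FPKM (interaction -1.37 ± 0.12 (SE)), so that Dex lowered it in the presence of LPS.

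The signalling lists were mixed in direction. Against 39.3% of all genes called (20.2% higher and 19.1% lower), the shares called were near the background for MAP kinase phosphatases (33.3%) and clock genes (46.7%), and between 56.0% and 72.2% for the other lists of this paragraph. Of 21 TLR pathway genes, 6 were called higher and 7 lower (median -0.24), with Tlr6, a partner of TLR2, at -1.43 ± 0.13 (SE) and Tlr2 at 0.49 ± 0.15 (SE). Of 18 genes of NF-kB subunits and inhibitors, 5 were higher and 8 lower (median -0.26). Among 26 JAK-STAT and SOCS genes 4 were higher and 11 lower (median -0.30), and among 9 MAP kinase phosphatases 1 was higher and 2 lower (median -0.31). The JAK-STAT and SOCS list had 0 higher and 8 lower in wild type alone (median -0.51), and 5 higher and 7 lower in AMPKa1-/- alone (median 0.03). In the same order, the medians were -0.25 and 0.10 for the TLR pathway and -0.47 and 0.02 for MAP kinase phosphatases. Of 15 C/EBP and Kruppel-like factors 4 were higher and 6 lower (median -0.19), and of 15 clock genes 4 were higher and 3 lower (median -0.02). Scavenging and apoptotic cell clearance had 6 higher and 6 lower of 21 (median -0.23), and NRF2 targets and glutathione 6 higher and 8 lower of 25 (median 0.24), including Gpx1, a peroxidase, at 1.51 ± 0.19 (SE), and Gstt3, a glutathione transferase, at -0.60 ± 0.22 (SE), which was not called after median centring (-0.56, adjusted p = 0.0955) or when any of 12 libraries was left out. In wild type alone the NRF2 and glutathione list had 8 higher and 3 lower (median 0.51), and in AMPKa1-/- alone 4 higher and 8 lower (median -0.03). Metalloproteinases and their inhibitors had 2 higher and 4 lower of 9 (median -0.83), and IL-1 family receptors and inflammasome genes 2 higher and 6 lower of 12 (median -0.45), with Casp1 at -0.86 ± 0.13 (SE).

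**Figure D4:**
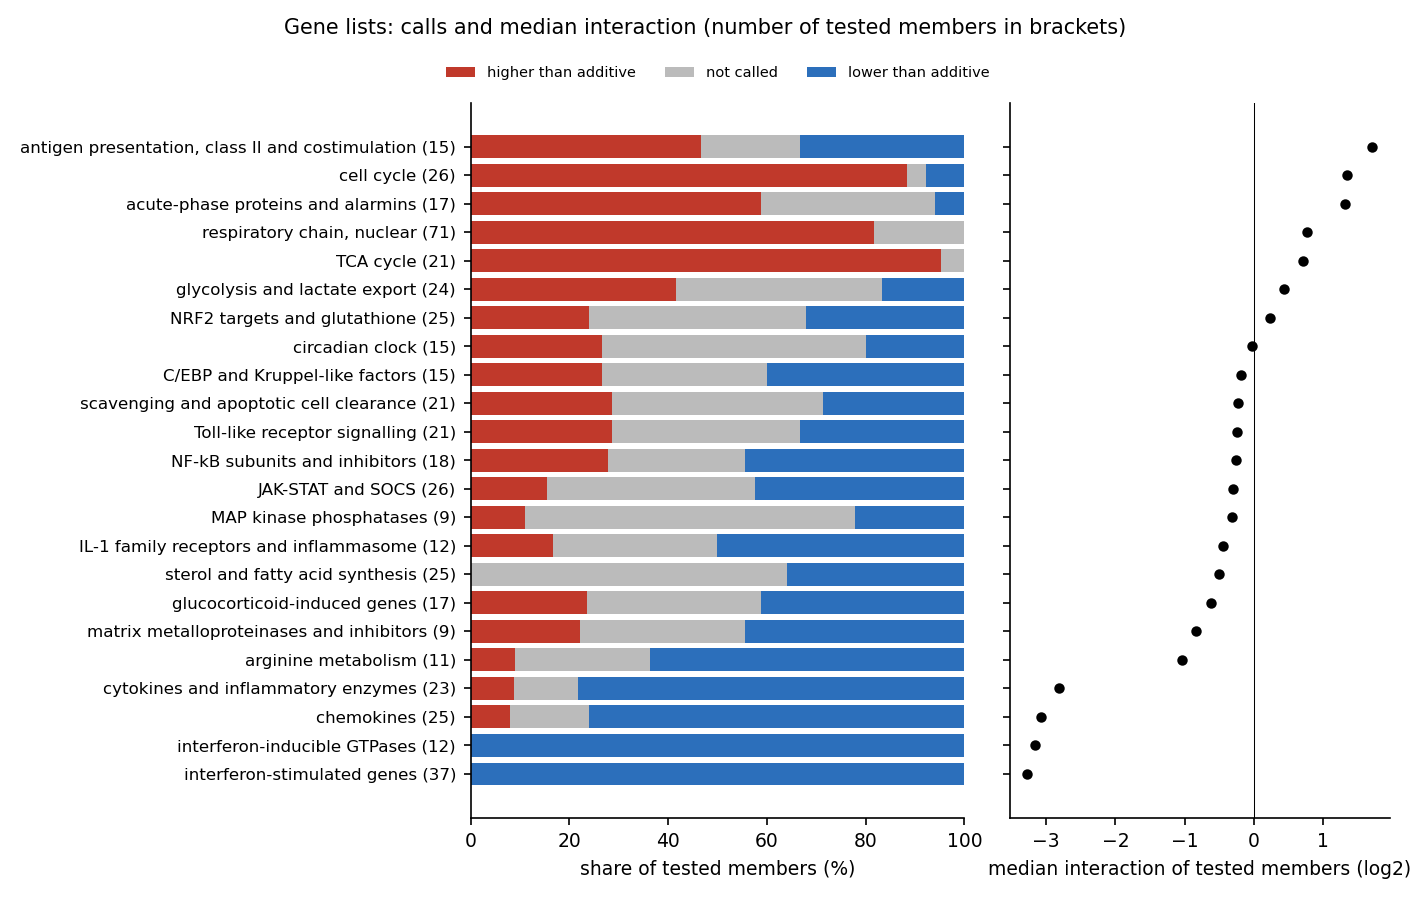
Share of the tested members of each of the 23 gene lists that were called higher than additive, not called or called lower (left, stacked bars in %, number tested in brackets), and the median interaction of the list in log2(FPKM + 1) (right, points). All interferon-stimulated genes and interferon-inducible GTPases are called lower, the TCA cycle and respiratory chain lists hold no gene called lower, and most signalling lists have medians close to 0.

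In 625 genes the direction of the Dex effect turned over, 238 being raised without and lowered with LPS and 387 the reverse, with both effects called. In 517 genes the direction of the LPS effect turned over, 257 being raised without Dex and lowered with it and 260 the reverse. In 173 genes both did. Rgs2, Ccl17 and St6galnac2 had the greatest interactions among the 625 by the rule for named genes. Ccl17, a chemokine for type 2 helper T cells, measured 0.0925 to 0.464 FPKM (median 0.136) in vehicle, 0.590 to 2.31 FPKM (median 1.35) in Dex, 302 and 289 FPKM in wild type and 192, 282 and 371 FPKM in AMPKa1-/- in LPS, and 1.96 to 8.67 FPKM (median 5.17) in LPS + Dex. Dex therefore raised it in resting cells (0.96 ± 0.21 (SE)) and lowered it in the presence of LPS (-5.64 ± 0.22 (SE)).

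The search of promoters covered 8646 of the genes tested, those with an entry in the table (RefSeq, GRCm38.p6). The NF-kB-like letters occurred in the 250 bases before the start of 0.981% of all 27025 promoters and of 0.844% of the tested genes, and in 2.32% of 690 genes of LPS induction countered by Dex, 0.282% of 710 genes of LPS repression countered by Dex and 23.5% of 17 chemokine genes. The interferon response element-like letters occurred in 7.16% of all promoters and 6.57% of the tested genes. They occurred in 11.3% of the genes of LPS induction countered by Dex, 51.9% of 27 interferon-stimulated genes and 23.5% of the 17 chemokine genes. The glucocorticoid response element core was found in 5.88% of all promoters and 3.39% of the tested genes, in 3.19% of the genes of LPS induction countered by Dex, in 5.49% of those of LPS repression countered by Dex and in none of 60 respiratory chain genes. C/EBP-like letters were found in 9.55% of all promoters, 7.63% of the tested genes, 11.8% of the chemokine genes and 0.0% of the interferon-stimulated genes. AP-1-like letters were found in 6.85% of all promoters, 4.09% of the tested genes, 17.6% of the chemokine genes and 22.2% of the interferon-stimulated genes. These shares are descriptions of letters near a start, with no test.

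The interactions were similar in sign in the 2 genotypes. In separate fits, 1421 genes were called higher (12.4%) and 1484 lower (12.9%) in wild type, and 1710 higher (15.2%) and 1408 lower (12.5%) in AMPKa1-/-, which are the shares against which the list counts of a single genotype stand. Of 2842 genes called in wild type and tested in both, 2708 (95.3%) had the same sign in AMPKa1-/-, and of 3075 called in AMPKa1-/- 2842 (92.4%) had the same sign in wild type, against 67.8% of all 11102 genes. There were 1704 genes called in both with the same sign and none with opposite signs. Of the 4468 genes called over both genotypes, 2497 (55.9%) had the same sign and an unadjusted p under 0.05 in each genotype alone. Across genes the interactions of wild type and AMPKa1-/- had a Pearson r of 0.81 and a Spearman rho of 0.61, as a description. Cxcl13 had 5.09 in wild type and 4.32 in AMPKa1-/-, and Ccl22 had -8.28 and -8.41. Hif1a (-0.78), Suclg1 (0.36), H2-Aa (3.68) and Tlr2 (0.44) were not called in AMPKa1-/- alone, with adjusted p from 0.0660 to 0.145. S100a8 was further apart, with 5.72 and 3.19.

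**Figure D5:**
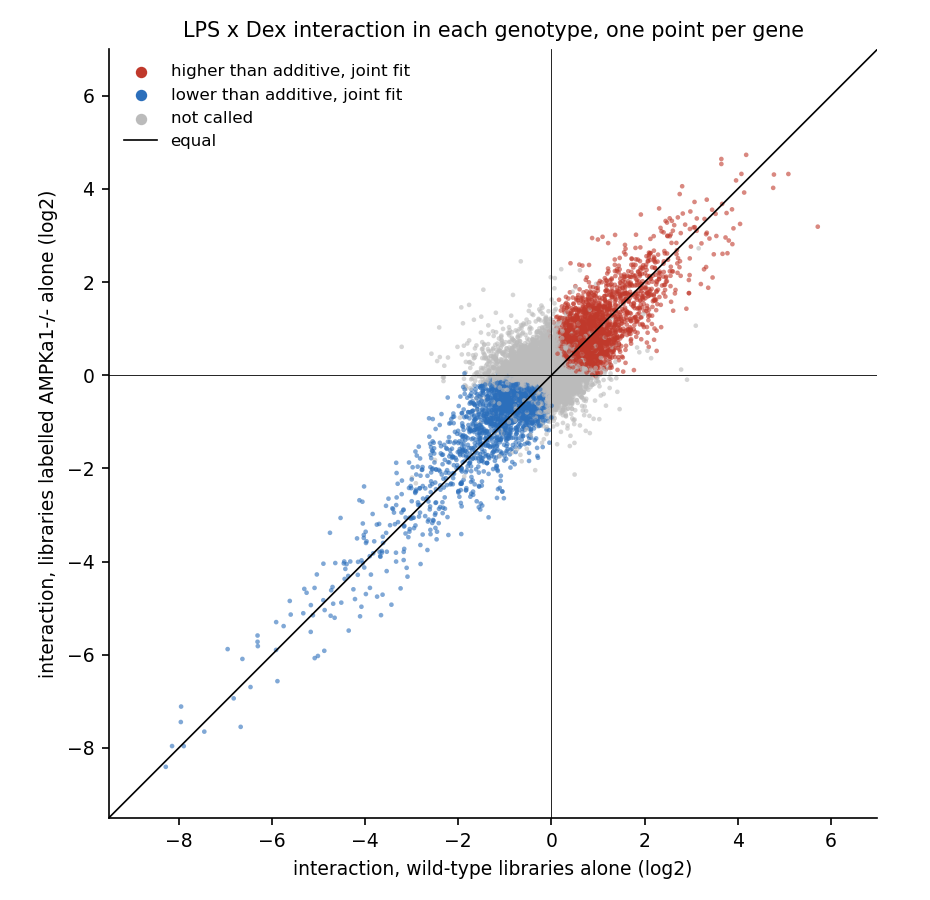
Interaction in wild type alone (x axis) against that in AMPKa1-/- alone (y axis), in log2(FPKM + 1), with 1 point per gene for 11102 genes. The points spread along the diagonal, and 67.8% of them have the same sign in both.

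A difference of the interaction between the genotypes was tested as a further term in the model and was called in none of the 11356 genes (0.0%), with a smallest adjusted p of 0.343 (limma). At an unadjusted p under 0.05 there were 1632 genes (14.4%), 961 of them higher in AMPKa1-/- and 671 lower. This count rested on single libraries, as it was 3189 without wild-type LPS + Dex replicate 1, but 787 without wild-type LPS replicate 2, 948 without wild-type Dex replicate 2, 993 without wild-type vehicle replicate 2, 1045 without wild-type LPS + Dex replicate 3, and 950 and 1069 without replicate 2 of Dex and of LPS + Dex in AMPKa1-/-. The median difference over all genes was 0.15, and -0.09 after each library was centred on its median, so that the general direction depends on the scaling. The median standard error was 0.35, which limits the size of a difference that could be called with 2 or 3 libraries per group. The 5 genes with the smallest p were Gm11192, Cytip, Ino80, Slc5a3 and Rpgrip1. Cytip, a cytohesin-interacting protein of leukocytes, had interactions of -0.86 in wild type and 1.28 in AMPKa1-/- (difference 2.14 ± 0.49 (SE), unadjusted p = 3.0e-04). Ino80, the ATPase of a chromatin remodeller, had -1.05 and 0.23 (difference 1.28 ± 0.29 (SE), unadjusted p = 3.1e-04). Neither gene passed the adjustment over all genes. S100a8 had a genotype difference of -2.53 ± 1.11 (SE) (adjusted p = 0.346).

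Finally, the effect of Dex on LPS-treated cells was compared with its effect on cells treated with 1 ug/ml DAMPs, which are endogenous molecules released by damaged cells. This contrast, LPS + Dex minus LPS against DAMPs + Dex minus DAMPs, shares no library between its sides, and it called 4372 of 11354 genes (38.5%), 2044 higher with LPS and 2328 lower. DAMPs alone changed far fewer genes, raising 416 and lowering 559 against vehicle. The interaction of DAMPs with Dex was called in 197 genes (1.74%, and in 1081 at an unadjusted p under 0.05). This interaction shares the vehicle and Dex libraries with that of LPS, so the values stand side by side only. The 4468 genes called for LPS had a median size of 0.80 for LPS in the fit without DAMPs. In the joint fit, the 4404 of them present there had a median size of 0.14 for DAMPs. Because these genes were picked by their LPS interaction, a larger size for LPS was favoured in advance. Cxcl13 had an interaction of 0.03 ± 0.54 (SE) with DAMPs, Ccl22 one of 0.06 ± 0.36 (SE), and Ddit4 one of 0.38 ± 0.29 (SE), none of them called. Of the 37 interferon-stimulated genes, 31 were called lower for DAMPs with Dex (83.8%, against 0.942% of all genes) and none higher, with a median of -1.55. Among them Usp18 had -2.00 ± 0.35 (SE) (adjusted p = 0.00211) and Isg20 -2.25 ± 0.42 (SE) (adjusted p = 0.00345). Ifi44l, which is not on the list, had -1.96 ± 0.36 (SE) (adjusted p = 0.00274). The difference between LPS and DAMPs in the effect of Dex was -3.42 ± 0.36 (SE) for Usp18 and -8.41 ± 0.37 (SE) for Ccl22.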

How the data were processed

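The authors deposited FPKM values per gene and library, for 47069 identifiers, and GENCODE M21 supplied a symbol for 46574 of them. The submitters' processing notes name Bowtie2 2.2.3, TopHat2 2.0.12, HTSeq 0.6.1 and DESeq2, and the builds GRCm38 and mm10, without a role or order. FPKM are not counts. The library totals implied by the steps of low values ranged from 15942581 to 28176237 fragments (median 19887945), but only 55.4 to 63.4% of values below 10 fragments came out whole within 0.001, and no count test was run. On 1 kb of gene length, 1 fragment was worth 0.0355 to 0.0627 FPKM, so that lower levels rest on few fragments.

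Genes with a mean of at least 1 FPKM over the 23 libraries were fitted on log2(FPKM + 1) in limma 3.58.1 (R 4.3.3, trended empirical Bayes) with the 4 treatments and an additive genotype term. The genotype difference was fitted with 8 separate groups. The DAMPs contrast was fitted over all 35 libraries with every treatment and an additive genotype term. Only the main fit was run on simulated data, with known interactions and independent errors, which does not test the other settings. The comparison, gene lists and classes were chosen with earlier results of these data known. Named were 127 genes: the 10 largest interactions in each direction and the 3 largest per class among calls with the same sign and an unadjusted p under 0.05 in each genotype, up to 3 called genes per list by p, 5 by p for the genotype difference, 3 per direction against DAMPs, 3 with a turned Dex effect, and genes the study measured by other means. Other members of the lists serve as examples. Genes near 0 except in 1 treatment, such as Steap4 and Inhba, passed the filter through that treatment, so list shares with such genes are descriptions. Alternatives covered the pseudocount (0.1), the filter (none, or 5 FPKM), median centring, quantile normalization, 8 separate groups, a replicate block, unmoderated variances, each genotype alone, each library left out and other class definitions. No column of other samples was present. Some genes are not reported here.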

Additional observations from a re-analysis of the deposited data

How the results depend on the processing

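The numbers of genes higher and lower than additive (2294 and 2174) were 2323 and 2102 with a pseudocount of 0.1, 2570 and 2692 with no filter, 1786 and 1732 with a minimum of 5 FPKM, 2520 and 2162 after median centring, 2639 and 2243 after quantile normalization, 2343 and 2259 with 8 separate groups and 2280 and 2168 without moderation. With fewer libraries they were 1421 higher in wild type only and 1408 lower in AMPKa1-/- only. Leaving out 1 library at a time gave 2162 to 2463 higher and 1953 to 2482 lower, and 3747 genes were called with the same sign in every such fit. No gene was called with the opposite sign, except 3 with a pseudocount of 0.1.

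The genotype difference called 0 genes under the alternatives run, except 1 gene without the second LPS library or the third LPS + Dex library of AMPKa1-/-. The Dex effect turned over in 300 genes in wild type only and 339 in AMPKa1-/- only, and the LPS effect in 305 and 334. Classes rest on their definition. From signs alone, there were 845 genes of joint rise, 228 of mutual release, 143 of Dex repression countered, 147 of shared repression, 0 other higher, 1121 of joint fall, 168 of mutual antagonism, 185 of Dex induction countered, 26 of shared induction and 0 other lower. With interactions of at least 1 in size, there were 235 of joint rise, 324 of LPS repression countered, 81 of Dex repression countered, 157 of shared repression, 4 other higher, 201 of joint fall, 30 of mutual antagonism, 456 of LPS induction countered, 68 of Dex induction countered, 16 of shared induction and 7 other lower.

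On the FPKM scale the sign was reversed for Tsc22d3 (-519.2), Glul (-989.5), Timp2 (-40.24) and BC018473 (60.65), and for Dusp1 (99.11) and Rpgrip1 (-2.137), which were not called. The sign of other genes that were not called also turned: Dusp1 in AMPKa1-/- only (0.0541), Ndufa6 after median centring (0.0375), quantile normalization (0.1364), with 8 groups (0.0004), in wild type only (0.3612) and without single libraries (-0.0846 to 0.0575), Cytip in wild type only (-0.8627), Ino80 in AMPKa1-/- only (0.2296), Slc5a3 with a pseudocount of 0.1 (-0.0456), quantile normalization (-0.0707) and without single libraries (-0.0408 to 0.195), and Rpgrip1 in wild type only (-0.6007). With a pseudocount of 0.1 Tnf turned sign and was called (1.168). Calls were gained by Dusp1 (-0.7409), Gm11192 (-2.592) and Ino80 (-1.046) in wild type only, by Cytip (1.2804), Slc5a3 (0.8981) and Rpgrip1 (1.0857) in AMPKa1-/- only, by Ino80 with 8 groups (-0.4082) and by Rpgrip1 with a pseudocount of 0.1 (1.8411). Of 118 named genes called, 15 lost the call under some alternative, namely Camp, Cd4, Col1a1, Csf1, Csf1r, Cyp51, Dusp5, Gm17530, Gstt3, H2-Aa, Hif1a, Kdm1a, Suclg1, Taf7 and Tlr2.

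With the replicate number as a block, 2318 genes were higher and 2242 lower, 4337 of the 4468 calls were kept with the same sign, Ndufa6 had 0.0124, and Gstt3 was not called (-0.5426, adjusted p = 0.051). For the genotype difference, genes at an unadjusted p under 0.05 went from 1632 to 2269. Deviations from the group means correlated with r from -0.25 to 0.55 (median 0.24) between libraries of the same number and with a median of -0.09 between other numbers, and 19 of 23 libraries correlated best, on average, with their own number, a hint from the data that numbers are shared. All same-number pairs were above 0.1 in 5 of 9 pairs of groups with 3 numbers, among them LPS and LPS + Dex of AMPKa1-/-, but not in the others. Since that was required of every pair and no label ties the numbers to animals or days, the reported values have no block. A single fragment sets the limit of low levels, and the wild-type LPS group rests on 2 libraries.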
